A study of Mus musculus with 115 samples.

Results

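This account describes how the liver transcriptome of gonadectomised mice that had developed testes responded to testosterone. It rests on 20 of the 60 liver arrays, out of 115 arrays in the series, chosen by their labels: 10 arrays of mice given testosterone (T) and 10 of mice given a blank capsule (B). The animals were FCG mice on a C57BL/6J background, in which Sry, the testis-determining gene, is deleted from the Y chromosome (written XY-) and may be supplied by an autosomal transgene. All 4 groups used for the response carry that transgene: XXSry B, XXSry T, XY-Sry B and XY-Sry T, with 5 arrays each. Because every mouse with testes carries the transgene, and every mouse without it had ovaries, the gonad and the transgene cannot be told apart in these data. All mice lost their gonads at 75 days of age and received the capsule at once, either with adhesive only or with 5 mM testosterone, and liver was collected 3 weeks later. The blank arm is therefore a castrated adult that had testes until that operation, not an intact animal. Ovary-line mice (XX and XY-, 10 T and 10 B arrays) and estradiol-treated testis-line mice (XXSry E and XY-Sry E, 50 µg estradiol, 10 arrays) served as comparisons. RNA was measured on Illumina BeadChips with 1 colour. The labels number no animals or litters, so each p-value measures a spread between arrays. In the main fit that spread was pooled over all 60 liver arrays in 12 groups.

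The mouse liver is one of the most sexually dimorphic organs in its gene expression. Males secrete growth hormone in pulses and females almost continuously, testicular androgen before and after puberty shapes that pattern, and the liver reads it through JAK2 and the transcription factor STAT5b. BCL6, a repressor that is higher in male liver, and CUX2, a regulator found in female liver, act downstream.

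Levels below are normalised log2 signals, and a difference is testosterone minus blank on that scale with the 2 genotypes weighted equally. Calls were made at an adjusted p under 0.05 in limma, with Benjamini-Hochberg adjustment over the 11317 tested probes. An offset of 16 on the signal shrinks the differences of dim probes. The median raw signal of the 20 arrays ranged from 125 to 159, and 31.8% to 40.6% of the probes were detected. All 9 hepatocyte marker genes on the array were detected in all 20 arrays. The genotype labels were checked with Xist, which marks an inactive X chromosome, and with the Y-linked gene Eif2s3y. In the array XY-Sry T replicate 5, Eif2s3y was 4.53, inside the 4.35 to 4.89 of the XXSry arrays and below the 6.84 to 8.14 of the other XY-Sry arrays, and 1 Xist probe was 6.63 against 4.43 to 5.08 in the other XY-Sry arrays. A second Xist probe, at 5.97, lay between the 5.75 that those arrays reached and the 5.98 at which the XXSry arrays began. The genotype label of that array is therefore doubtful, and without it 8 of the called responses named below were lost, those of Igfbp2, Cish, Dgat2, Nr1h4, Abcc2, Irs2, Gbp2b and Per2 (adjusted p from 0.0506 to 0.128), with the line difference of Insig2 (0.065). The labels name no slides, so arrays whose titles begin with the same number were taken as a slide, and the slides were numbered in that order. Of the slides so defined, 1 and 3 held only blank and 4 and 6 only testosterone arrays of the 20. Slides 2, 5 and 8 held 2 of each arm. Some acute-phase transcripts set 2 other testosterone arrays apart, XY-Sry T replicate 3 and XXSry T replicate 4. Their levels of Lcn2, the neutrophil and acute-phase lipocalin, were 12.77 and 12.76 against 6.14 to 7.86 in the other 18 arrays. Saa1, Saa2, Saa3 and Orm2 were also above the other 18 in both arrays, while Hamp and Socs3 were inside the range of the 18.

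Testosterone changed 1034 of the 11317 tested probes (9.14%), 443 upward (3.91%) and 591 downward (5.22%), which belong to 900 genes. Of these, 155 differed by 2-fold or more, 86 upward and 69 downward, and 14 by 8-fold or more. For 59 probes (0.521%) all 10 testosterone arrays lay above all 10 blank arrays, and for 48 (0.424%) all lay below. The median size of a called difference was 0.59, so most of the response was made of modest shifts and a short list of very large ones. Under median centring of the arrays in place of quantile normalisation 410 probes were called and the upward share was 34.4% rather than 42.8%. With 12 arrays from the 3 slides that held both arms, 370 were called. With slide as a fixed or random block in the full fit 1516 and 1438 were called, and with array weights 1217. Leaving out the 2 arrays high in acute-phase transcripts gave 634, and leaving out XY-Sry T replicate 5 gave 881. Fitting only the 20 arrays gave 914.

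The largest increase was that of Hsd3b5, a ketosteroid reductase of the hydroxysteroid dehydrogenase family that is typical of male mouse liver. Its level ranged from 4.99 to 7.36 (median 6.51) in blank livers and from 11.15 to 12.95 (median 12.09) in testosterone livers. The arms lay far apart, and the difference was 5.90 ± 0.50, adjusted p = 1.55e-13, or 59.8-fold. Cyp4a12, the male-typical fatty acid omega-hydroxylase, went from a range of 4.61 to 8.15 (median 6.59) to one of 11.38 to 12.58 (median 12.45), also without overlap, a difference of 5.78 ± 0.40, adjusted p = 1.2e-16. A transcript that the array table lists only as MGC25972 rose by 4.81 ± 0.51. Its blank arm was broad, from 6.83 to 10.43 (median 8.70), and its testosterone arm narrow, from 12.86 to 13.82 (median 13.52).

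The other leading increases, each between 2.72 and 3.16, were in genes of several kinds. Insig2, which holds back the processing of sterol regulatory element binding proteins, rose by 3.16 ± 0.39 on its most changed probe and by 1.25 and 0.89 on the other 2. Elovl3, an elongase of very long chain fatty acids, was not well above background on any blank array and was detected on all 10 testosterone arrays, at least 3.67-fold higher (means 7.43 against 4.58, adjusted p = 1.14e-12). This bound sets the treated mean against the lowest signal that was well above background on the blank arrays. Serpina4-ps1, a transcribed serpin pseudogene, had the same on-or-off pattern and was at least 5.6-fold higher (means 8.04 against 4.91, adjusted p = 5.02e-11). Gstp1, a glutathione S-transferase, rose on all 3 of its probes, by 3.12, 2.10 and 0.87, with no overlap of arms on the first of these (blank from 5.43 to 5.95 (median 5.73), testosterone from 8.26 to 9.15 (median 8.84)). Serpina3k, a secreted inhibitor of trypsin-like proteases, rose by 3.03 ± 0.23, the major urinary protein transcript OTTMUSG00000000231 by 2.97 ± 0.28, the predicted gene Gm4956 by 2.92 ± 0.27 and the complement component C6 by 2.78 ± 0.22. Of these, only Gm4956 had overlapping arms.

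**Figure D1:**
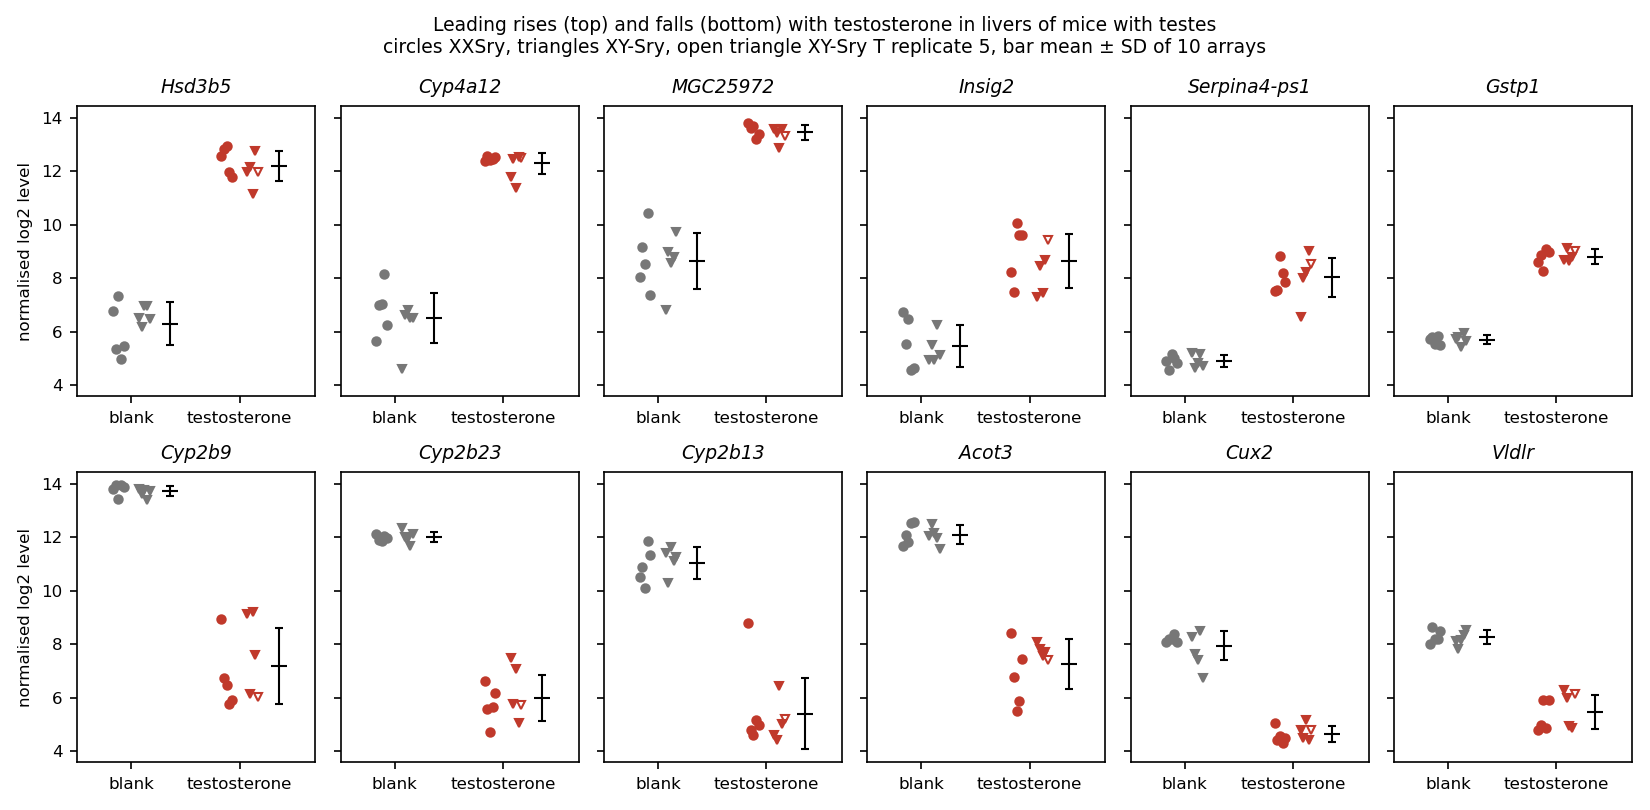
Normalised log2 level of 6 of the leading rises (top) and 6 of the leading falls (bottom) in each of the 20 arrays, with blank and testosterone arms side by side. Circles are XXSry and triangles XY-Sry arrays, the open triangle is the array with the doubtful genotype label, and bars give the mean ± SD of 10 arrays; the arms of these 12 genes do not overlap, and Cyp2b13 in XXSry T replicate 1 (8.82) lies far above the other testosterone arrays.

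Scara5, a scavenger receptor that takes up ferritin, differed from these in how unevenly it rose. It was not well above background on any blank array, and in testosterone livers it ranged from 5.18 to 9.56 (median 7.21). Its SD over those 10 arrays was 1.32, while the SE given below pools the spread of all 12 groups. Its highest levels, 9.01 and 9.56, were in the 2 arrays with high Lcn2 and Saa transcripts, in which those transcripts and Scara5 moved together; their part in the result was not tested beyond leaving both arrays out. The measured difference, against a blank arm at background, was 2.72 ± 0.29 with them and 2.24 without them (adjusted p = 8.37e-10), and the bound was at least 3.49-fold over the whole arms (means 7.36 against 4.64, adjusted p = 2.89e-10).

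The deepest falls were in cytochromes P450 of the Cyp2b group, enzymes that oxidise drugs and steroids and are, for Cyp2b9 and Cyp2b13, typical of female mouse liver. Cyp2b9 ranged from 13.39 to 13.97 (median 13.79) in blank livers and from 5.76 to 9.20 (median 6.62) in testosterone livers, a 93.5-fold fall (-6.55 ± 0.43, adjusted p = 7.74e-18). The blank arrays lay close together, while the testosterone arrays spread widely and all 10 detected the transcript. Cyp2b23 fell from a median of 11.98 to 5.76 (-6.01 ± 0.36, adjusted p = 2.21e-19). Cyp2b13 fell from a median of 11.20 to 5.00 and was detected on only 2 of 10 testosterone arrays (-5.64 ± 0.55, adjusted p = 1.2e-11). In XXSry T replicate 1 it stayed at 8.82, while the next highest treated array was at 6.45. Cyp2b10, the family member induced by foreign compounds, fell less far, by 2.55 ± 0.22, with the arms apart. All 4 Cyp2b probes tested were therefore lower. Cross-binding between such close relatives was not tested.

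The 250 bases before the transcription starts of Cyp2b9 (chr7:26173159-26173408, plus strand) and Cyp2b13 (chr7:26061245-26061494, plus strand), as RefSeq gives them on GRCm38.p6, are shown because the transcripts fell together and the windows are near copies. They match at 248 of 250 positions (99.2%), and the 2 differing bases of each are in capitals.
Cyp2b9: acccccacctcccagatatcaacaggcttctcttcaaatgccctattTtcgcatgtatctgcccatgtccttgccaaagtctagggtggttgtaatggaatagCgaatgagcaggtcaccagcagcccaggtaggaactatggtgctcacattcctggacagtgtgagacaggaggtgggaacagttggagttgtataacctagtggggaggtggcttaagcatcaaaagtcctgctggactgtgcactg
Cyp2b13: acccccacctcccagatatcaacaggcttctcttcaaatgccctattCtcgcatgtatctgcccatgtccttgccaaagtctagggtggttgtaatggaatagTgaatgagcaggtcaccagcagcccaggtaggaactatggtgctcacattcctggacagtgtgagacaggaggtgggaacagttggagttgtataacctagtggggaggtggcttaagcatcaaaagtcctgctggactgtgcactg
The window of Cyp2b10 aligned with either at 70.0% identity and that of Cyp2b23 with either at 63.0%. Cyp2b23, with the less similar window, fell by 6.01, between the falls of the near-identical pair.

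Below the Cyp2b group, Acot3, a peroxisomal thioesterase of acyl-CoA esters, fell from a range of 11.55 to 12.57 (median 12.07) to one of 5.50 to 8.41 (median 7.50) (-4.83 ± 0.40, adjusted p = 6e-14). Its chromosomal relative Acot4 fell by 1.99 ± 0.18, and the other 15 probes of Acot genes were not called, a family grouped here after the values were seen. Vldlr, a receptor for triglyceride-rich lipoproteins, fell by 2.79 ± 0.23, Abcd2, a peroxisomal fatty acid transporter, by 2.12 ± 0.25, and both arms of each were apart. The transcript BC014805 was not well above background on any testosterone array and was at least 3.38-fold lower (means 4.69 against 7.33, adjusted p = 9.18e-10). Rgs16, a brake on G protein signalling whose liver level follows feeding and the clock, fell by 2.74 ± 0.57, but its arms overlapped widely: blank from 9.04 to 12.48 (median 10.52), testosterone from 4.88 to 10.99 (median 7.70). Within the 3 slides that held 2 arrays of each arm its difference was -0.20, -3.12 and -4.61, and it was not called on those slides alone.

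Transcripts of the pathway that relays growth hormone changed mainly at a few points. Cux2 fell from a median of 8.15 to below detection on all 10 testosterone arrays, at least 5.22-fold (means 4.66 against 7.96, adjusted p = 3.26e-11). Bcl6 ranged from 7.34 to 10.27 (median 8.34) in blank livers and from 9.11 to 11.21 (median 9.85) in testosterone livers; the arms overlapped and the difference was 1.74 ± 0.41, adjusted p = 0.00339. On the shared slides alone it was 1.09 and not called (adjusted p = 0.147). Prlr, the prolactin receptor, fell by 2.32 ± 0.18 with the arms apart, blank from 10.79 to 11.35 (median 11.09) and testosterone from 8.06 to 9.29 (median 8.78). The growth hormone receptor Ghr differed by 0.08 ± 0.15, adjusted p = 0.81, and Igf1, the main secreted product of growth hormone action in liver, by -0.22 ± 0.10, adjusted p = 0.192. Neither was called.

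Of 16 tested genes of the growth hormone and STAT5 list, 4 fell and none rose, against 5.74% of all 8421 tested genes called lower, 3.88% higher and 9.62% in either direction (each gene by its brightest probe). Besides Prlr these were Cish, a feedback inhibitor induced by STAT5, at -1.32 ± 0.42, adjusted p = 0.0378, Igfbp2, which binds insulin-like growth factors, at -0.60 ± 0.19, adjusted p = 0.0299, and Igfals, which stabilises circulating IGF1, at -0.56 ± 0.18, adjusted p = 0.04. Without XY-Sry T replicate 3, without XXSry T replicate 4, or without both, only Prlr was called, and without XY-Sry T replicate 5 there were 2 calls. The list's median difference was -0.13, beside -0.01 for all genes. Socs2, another STAT5 target, was at -0.66 ± 0.26, adjusted p = 0.107, and Jak2, Stat3 and Stat5a lay between -0.09 and 0.09, none of them called. Of 12 regulators of sex-biased liver transcription, Bcl6 rose, and Cux2 and Nr1i3 (CAR, the xenobiotic receptor that drives Cyp2b10) fell, the last by 0.99 ± 0.19. The hepatocyte factors Hnf4a, Cebpa and Foxa3 were at 0.32, 0.01 and 0.38, with adjusted p from 0.0706 to 0.991.

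The upstream windows of Bcl6 and Prlr are shown because these genes changed in opposite directions and each window holds the pattern TTCNNNGAA, the palindrome that STAT5 is known to bind. The pattern reads the same on both strands, and its matches are in capitals. The Bcl6 window (chr16:23981284-23981533, minus strand) holds 3 matches, and the Prlr window (chr15:10223656-10223905, plus strand) holds 1.
Bcl6: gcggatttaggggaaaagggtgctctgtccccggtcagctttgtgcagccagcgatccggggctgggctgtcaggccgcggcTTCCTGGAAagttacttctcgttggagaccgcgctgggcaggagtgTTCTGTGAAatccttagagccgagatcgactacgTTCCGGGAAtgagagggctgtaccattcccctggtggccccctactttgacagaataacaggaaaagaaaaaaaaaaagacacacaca
Prlr: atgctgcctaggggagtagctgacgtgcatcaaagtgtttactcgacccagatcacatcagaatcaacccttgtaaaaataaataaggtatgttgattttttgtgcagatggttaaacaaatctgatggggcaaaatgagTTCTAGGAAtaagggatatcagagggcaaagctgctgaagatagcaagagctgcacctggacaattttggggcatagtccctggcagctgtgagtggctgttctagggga
A second annotated start of Bcl6 has 1 match, and the other 2 of Prlr have none. Windows of Hsd3b5, Cyp2b9, Cyp2b13, Cyp2b23, Acot3 and Cux2 hold no such letters. Over genes with a window in the RefSeq table, 6 of 55 genes that rose 2-fold or more had the pattern (10.9%) and 3 of 39 that fell (7.69%), beside 7.33% of all tested genes and 8.13% of all genes in the table. TGTTCT or its complement AGAACA, the core letters of steroid hormone response elements, which share TTC with the other pattern and may overlap it, occurred in 21.8% and 28.2% of these sets and in 14.0% of tested genes and 18.2% of the table. The Bcl6 and Prlr windows shown also hold TGTTCT, left in small letters except where it overlaps a marked match of Bcl6. All these matches describe letters in a short window and no binding was measured.

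Genes known for higher expression in male liver moved almost as a block. Among all tested genes 3.88% were called higher and 5.74% lower, beside which this list and those below stand. For 0.521% of all tested probes all 10 testosterone arrays lay above all 10 blank arrays. Of 19 tested members of the male-biased list 16 rose and none fell, with a median difference of 1.67, and for 12 of them the arms did not overlap. Beside the leading genes these included Selenbp2, a selenium binding protein (2.14 ± 0.26), Cyp2d9, a steroid 16-alpha-hydroxylase (1.94 ± 0.43), Slco1a1, an organic anion uptake transporter undetected in every blank array (at least 2.03-fold, means 6.58 against 4.81, adjusted p = 1.22e-11), and Cyp7b1, an oxysterol and steroid hydroxylase (1.45 ± 0.19). Genes known for higher expression in female liver fell in 11 of 21 cases, with a median of -0.90. Dct, dopachrome tautomerase, went the other way, from 4.50 to 7.12 (median 5.84) in blank livers to 6.30 to 9.03 (median 7.47) in testosterone livers (1.66 ± 0.29, adjusted p = 5.83e-05). Both lists were compiled from general knowledge of liver sex differences with earlier results of these data known. Their counts are thus descriptions. Sult3a1, Cyp3a41a and Hao2 were not well above background on any blank or testosterone array of the testis line, so no fall of theirs could be measured. Female-biased genes at background in both arms still count among the 21 and in the median. The share of 11 of 21 is therefore not comparable with the 16 of 19 of the male-biased list. On the shared slides alone 13 of the male-biased genes were called higher.

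**Figure D2:**
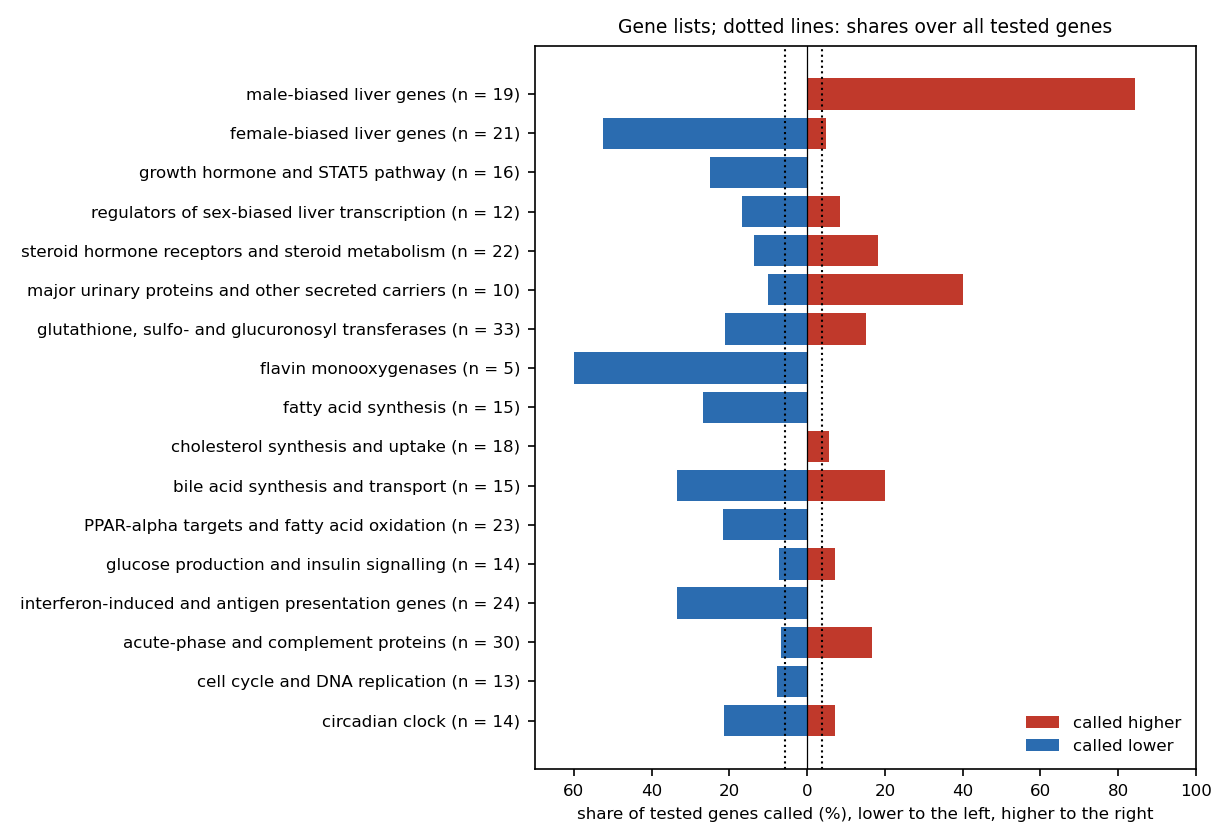
Share of the tested genes of each list called higher (red, to the right) or lower (blue, to the left) with testosterone, with the number of tested genes in parentheses. Dotted lines mark the shares over all tested genes, 3.88% higher and 5.74% lower. The male-biased list reaches 16 of 19 higher and the female-biased list 11 of 21 lower. Genes at background in both arms, which could not fall measurably, are counted among the tested genes.

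Steroid metabolism changed in single steps. Of 22 tested genes 4 rose and 3 fell, with a median of 0.09. Srd5a1, the reductase that turns testosterone into dihydrotestosterone, rose by 1.88 ± 0.26, from 6.88 to 8.33 (median 7.80) to 8.30 to 10.25 (median 9.63), with arms that overlapped slightly. Hsd17b4, a peroxisomal multifunctional enzyme, rose by only 0.26 ± 0.08. Hsd11b1, which regenerates active glucocorticoid, fell by 0.41 ± 0.08, and Akr1d1, the 5-beta-reductase of bile acid and steroid breakdown, fell by 0.82 ± 0.17. Esr1, the estrogen receptor, fell by 1.12 ± 0.20 (adjusted p = 4.88e-05). Cyp17a1, the 17-alpha-hydroxylase, was at 0.16 ± 0.36, adjusted p = 0.852, with 2 testosterone arrays at 9.88 or higher and the other 8 at or below 8.14.

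Among secreted proteins the major urinary proteins, pheromone carriers made by the liver, rose on 7 of 8 probes. The rises were 2.09 for Mup4, 2.31 for the dimmer of the Mup5 probes (the other rose 4-fold) and 0.57 for Mup1. The brightest Mup2 and Mup3 probes already stood at 13.94 or higher on every blank array and differed by 0.33 and 0.28, the second of them not called. Mup probes can cross-bind, since the genes are near copies. In the serpin A family, grouped after the values were seen, 5 of 19 probes rose and 2 fell, beside 3.91% and 5.22% of all tested probes. Serpina1e, an alpha-1-antitrypsin paralog, rose by 2.60 ± 0.26 and Serpina12 (vaspin) by 2.51 ± 0.41, while Serpina1a to Serpina1d lay between -0.17 and 0.34 and were not called. Serpina6, corticosteroid binding globulin, fell from 13.11 to 13.58 (median 13.32) to 10.41 to 11.99 (median 11.28), without overlap (-2.04 ± 0.28, adjusted p = 1.65e-07).

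In the list of acute-phase and complement genes, 4 whose products join the membrane attack complex rose, a grouping made after their values were seen. C6, C8a, C8b and C9 did so by 2.78, 1.41, 1.38 and 0.95. C9 ranged from 12.43 to 13.21 (median 12.79) in blank and from 13.56 to 13.94 (median 13.81) in testosterone livers, with the arms apart. C3, the central component, fell by 0.33 ± 0.10, a call lost under 6 alternatives. These were median centring, the shared slides alone and leaving out both arrays high in acute-phase transcripts (adjusted p = 0.064 for the last). The others left out XY-Sry T replicate 1, XY-Sry B replicate 4 or XXSry B replicate 2. Over the 30 tested acute-phase and complement genes 5 rose and 2 fell, the fifth rise being coagulation factor F11 at 0.86 ± 0.13 and the other fall F5 at -0.36 ± 0.11, a call lost under 10 alternatives, among them leaving out both arrays high in acute-phase transcripts or either of them. Saa1 and Lcn2 were not called (adjusted p = 0.26 and 0.478), and the 2 arrays named above held their highest levels.

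Enzymes that conjugate drugs and hormones changed in both directions. Of 33 transferases 5 rose, 7 fell and 21 were not called, with a median of -0.01. Both Gstp genes rose, Gstp2 by 1.97 ± 0.26, and so did the glucuronosyl transferases Ugt2b1 (1.38), Ugt2b5 (0.81) and Ugt2b35 (0.70). Cross-binding between the Gstp1 and Gstp2 probes was not tested. The glutathione transferases Mgst3, Gstt2 and Gstt3 fell by 1.43, 1.11 and 1.05, and the sulfotransferases Sult1c2, Sult1a1 and Sult1d1 by 1.51, 0.75 and 0.58. Papss2, which makes the sulfate donor for those enzymes, fell by 0.94. The flavin monooxygenases Fmo1 and Fmo4 fell by 0.80 and 1.01, and for Fmo5 a second probe rose by 0.73 while its brightest was at 0.37 and not called. Cyp2a5, a coumarin hydroxylase, fell on all 4 of its probes, by 0.57 to 1.05, and 5 of 14 Cyp2c probes fell and none rose. Both families were grouped after the values were seen, and 5.22% of all tested probes fell.

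Lipid and bile acid genes moved less. In fatty acid synthesis 4 of 15 genes fell and none rose (median -0.14): the transcription factor Srebf1 (-0.94 ± 0.24), the elongases Elovl6 (-0.81 ± 0.21) and Elovl5 (-0.42 ± 0.10), and Dgat2, the last enzyme of triglyceride synthesis (-0.38 ± 0.11). Under median centring, or on the shared slides alone, 1 of the 4 was called. The call for Dgat2 was lost under 9 alternatives, and 3 of the 4 were called without XY-Sry T replicate 5, without XXSry T replicate 4 or without both arrays high in acute-phase transcripts. In bile acid synthesis and transport 3 of 15 rose, Slco1a1, Cyp7b1 and the sterol 12-alpha-hydroxylase Cyp8b1 (1.02 ± 0.29), and 5 fell. The falls were in Slco1a4, an uptake transporter (-1.14 ± 0.21), the export pumps Abcc3 and Abcc2, the bile acid ligase Slc27a5 and the bile acid receptor Nr1h4. Without XY-Sry T replicate 5, or without XXSry T replicate 4, 3 falls were called. Under median centring the calls for Abcc3, Abcc2, Slc27a5, Nr1h4 and Cyp8b1 were lost. On the shared slides alone those for Abcc2, Slc27a5, Nr1h4 and Cyp8b1 were lost. The call for Nr1h4 was lost under 20 alternatives. Of 23 targets of PPAR-alpha and fatty acid oxidation genes, 5 fell: Acot3, Acot4, Cyp4a14 (-0.88 ± 0.22), Ppara itself (-0.75 ± 0.21) and its coactivator Ppargc1a (-0.74 ± 0.17). The list's median was -0.10, and 18 were not called. On the shared slides alone 2 were called, Acot3 and Acot4, and the call for Ppara was also lost without both arrays high in acute-phase transcripts (adjusted p = 0.0565). Of 18 cholesterol synthesis and uptake genes only Insig2 was called. G6pc, the last enzyme of glucose release, rose by 1.46 ± 0.35, and Irs2, an adaptor of the insulin receptor, fell by 0.70 ± 0.23, while 12 of the 14 genes of glucose production and insulin signalling were not called. The call for Irs2 was lost under 18 alternatives, among them leaving out XY-Sry T replicate 5 (adjusted p = 0.0744).

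Interferon-induced and antigen presentation genes were lower in part. Of 24 tested genes 8 fell and none rose, with a median of -0.35. They were the guanylate binding proteins Gbp2, Gbp2b and Gbp6, the GTPase Igtp, Ifit3 and Usp18, and the class II histocompatibility genes H2-Ab1 and H2-Eb1. Gbp2 ranged from 7.54 to 8.91 (median 8.32) in blank and from 6.36 to 8.29 (median 7.04) in testosterone livers, where the arms overlapped, and fell by 1.09 ± 0.24. H2-Ab1 fell by 0.79 ± 0.18. On the shared slides alone 2 of the 8 were called, and without both arrays high in acute-phase transcripts 6 were, H2-Eb1 (adjusted p = 0.06) and Gbp2b (0.0997) being lost. The call for Gbp2b was lost under 21 alternatives, among them leaving out XY-Sry T replicate 5. Markers of blood and resident immune cells gave the following values. Of 11 tested Kupffer cell and macrophage markers none was called (median -0.05), and the log2 of their summed signal ranged from 11.59 to 12.07 in blank and from 11.21 to 12.15 in testosterone livers. Of 12 lymphocyte and neutrophil markers 9 were undetected in all 20 arrays, and the B cell gene Cd79b fell by 0.62. In whole liver, fewer cells of a type and less RNA per cell cannot be told apart. The part of such cells in these falls was not tested further.

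Few markers of the other cell types of liver were called: 1 of 10 endothelial markers fell (Cdh5, by 0.63), and none of 8 stellate cell markers, 2 bile duct markers or 2 adipose markers was called. Among red cell genes Alas2, the erythroid aminolevulinate synthase, which starts heme synthesis, rose from 8.46 to 9.58 (median 9.08) to 10.06 to 10.90 (median 10.60), without overlap, while the other 3 tested were not called. The pancreatic elastase gene Cela1 rose by 0.71, and the other 4 pancreas markers on the array were undetected in all 20 arrays.

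Clock genes were lower in median (-0.59 over 14 genes, beside -0.01 for all genes), though few passed the test. Per3 and Per2 fell by 1.74 ± 0.34 and 0.95 ± 0.28, and Clock rose by 0.76 ± 0.17. The calls for Per2 and Clock were lost on the shared slides alone, and that for Per2 also under median centring, with slide as a fixed block and without XY-Sry T replicate 5 (adjusted p = 0.0611). The hour at which each liver was taken is not given in the sources used here. In the separate ovary-line animals the list's median was 0.03, and under estradiol, against the same blank arrays as testosterone, it was -0.57. Of 13 cell cycle genes only Ccnd1, a G1 cyclin, was called, at -0.91 ± 0.28, and that call was lost under 10 alternatives, 7 of which left out 1 array.

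The response did not differ detectably with the sex chromosomes. No probe was called for the difference between the response of XXSry and that of XY-Sry livers (0%; 306 probes had an unadjusted p under 0.05, and the smallest adjusted p was 0.999). Hsd3b5 rose by 6.42 in XXSry and 5.38 in XY-Sry, Cyp2b9 fell by 7.04 and 6.05, and Bcl6 rose by 2.08 and 1.39. All 1034 called probes had the same sign in both genotypes, which a call over their mean favours. Over all tested probes the 2 responses, from separate animals, had a Pearson r of 0.71 as a description. The XY-Sry sizes and this r include XY-Sry T replicate 5 with its doubtful label, and they were not computed without it. With XY-Sry T replicate 5 left out or counted as XXSry T, no probe was called either. With 5 arrays a group the SE of that difference was 1.01 for Hsd3b5 and 0.85 for Cyp2b9, so a difference of that size would not have been detectable for these genes.

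**Figure D3:**
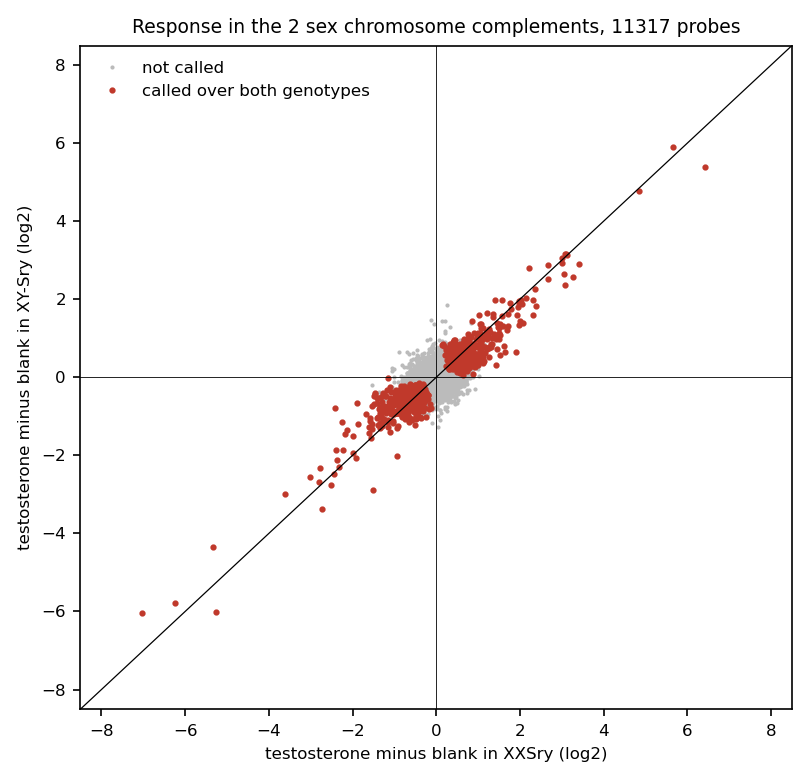
Testosterone minus blank in XXSry livers (horizontal, log2) against the same in XY-Sry livers (vertical, log2) for the 11317 tested probes, with the line of equality. Red points are the 1034 probes called over both genotypes and grey points the rest. The largest rises and falls lie near the line. XY-Sry T replicate 5, with its doubtful label, is counted as XY-Sry.

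The direction of the response was largely shared with ovary-line livers. Among the 1034 called probes 992 (95.9%) had the same sign in ovary-line mice, which are separate animals, and 369 were called there too, 35.7% of the calls in the testis line and 46.2% of the 799 calls (7.06%) in the ovary line. Over all tested probes the responses of the lines had a Pearson r of 0.72 as a description. The share of all tested probes with the same sign was not counted. Of the 24 leading genes 22 were called in the ovary line. A direct test of the difference between the lines called 14 probes (0.124%) of 13 genes, 11 with a higher and 3 with a lower response in the testis line. For 13 of these 14 probes the blank arms of the lines also differed, and their testosterone arms lay within -0.38 to 0.30 of each other. For these 13 probes the lines differed in the blank arms and no difference between the testosterone arms was called. A called difference of the responses favours probes whose lines differ in either arm, so this count is a description. Sult3a1, Cyp3a41a and Hao2 were at background in the testosterone arms of both lines, so those arms could not differ measurably. Over all probes 198 (1.75%) differed between the blank arms and 24 (0.212%) between the testosterone arms.

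The clearest example was A1bg, a plasma glycoprotein that is typical of female mouse liver. It was low in blank testis-line livers, from 4.86 to 6.63 (median 5.96), and low with testosterone, from 4.35 to 6.2 (median 4.71), a difference of -0.90 ± 0.48, adjusted p = 0.26. In ovary-line livers it ranged from 9.51 to 13.45 (median 11.52) without hormone and from 4.36 to 6.62 (median 4.69) with testosterone, a fall of 6.64 ± 0.48. The difference of the responses was 5.74 ± 0.68, adjusted p = 1.27e-07. Sult3a1, a sulfotransferase, and Cyp3a41a, a female-typical cytochrome, were not well above background on any testis-line array of either arm, while every ovary-line blank array detected them and none of the ovary-line testosterone arrays did. With testosterone the ovary-line mean of Sult3a1 was at least 3.99-fold lower (means 4.52 against 7.56) and that of Cyp3a41a at least 3.64-fold (means 4.43 against 7.43). The test of the difference between the responses gave adjusted p = 1.27e-07 and 7.39e-07, with 3 of the 4 arms at background. Hao2, a peroxisomal hydroxyacid oxidase, was detected on 8 of 10 ovary-line blank arrays and on none of the other 30, and with testosterone its ovary-line mean was at least 1.18-fold lower (means 4.46 against 5.80). Nt5e, an ecto-nucleotidase, was detected on all 10 ovary-line blank arrays and on 3 of the 10 in the testis line, with a difference of 1.39 measured against testosterone arms at or near background. Its line difference was lost under median centring and without background correction. Cyp17a1 fell by 2.43 in the ovary line.

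In the opposite direction, Cyp2d9 rose by 1.94 in testis-line livers from a blank median of 10.72, and by 4.77 in ovary-line livers from 8.03, and the testosterone medians were 12.95 and 12.80. The line difference of Cyp2d9 was lost under median centring and without the filter on dim probes. Susd4, a complement regulator, rose by 0.82 and 2.77 to medians of 9.55 and 9.14. The testis-line call for Susd4 (adjusted p = 0.0448) was lost under 19 alternatives. Igfbp2 fell by 0.60 in the testis line and rose by 0.81 in the ovary line, and Dct rose by 1.66 and fell by 1.06, so that each converged from opposite sides. Insig2 on its most changed probe rose by 3.16 from a blank median of 5.33, and in the ovary line, with a blank median of 8.11, its difference was 0.65 and not called (adjusted p = 0.363). That line difference was not called without XY-Sry T replicate 5 (2.36, adjusted p = 0.065), and the other 2 Insig2 probes rose by 1.25 and 0.89 here. Scara5 was the exception among the 13 genes. No difference between its blank arms was called (0.11, adjusted p = 0.981), it was undetected on all ovary-line arrays of both arms, and with testosterone it was at least 3.46-fold higher in the testis line (means 7.36 against 4.73). The measured difference of its responses, against background, was 2.52 ± 0.41, adjusted p = 0.000263, and 2.04 without the 2 arrays high in acute-phase transcripts.

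**Figure D4:**
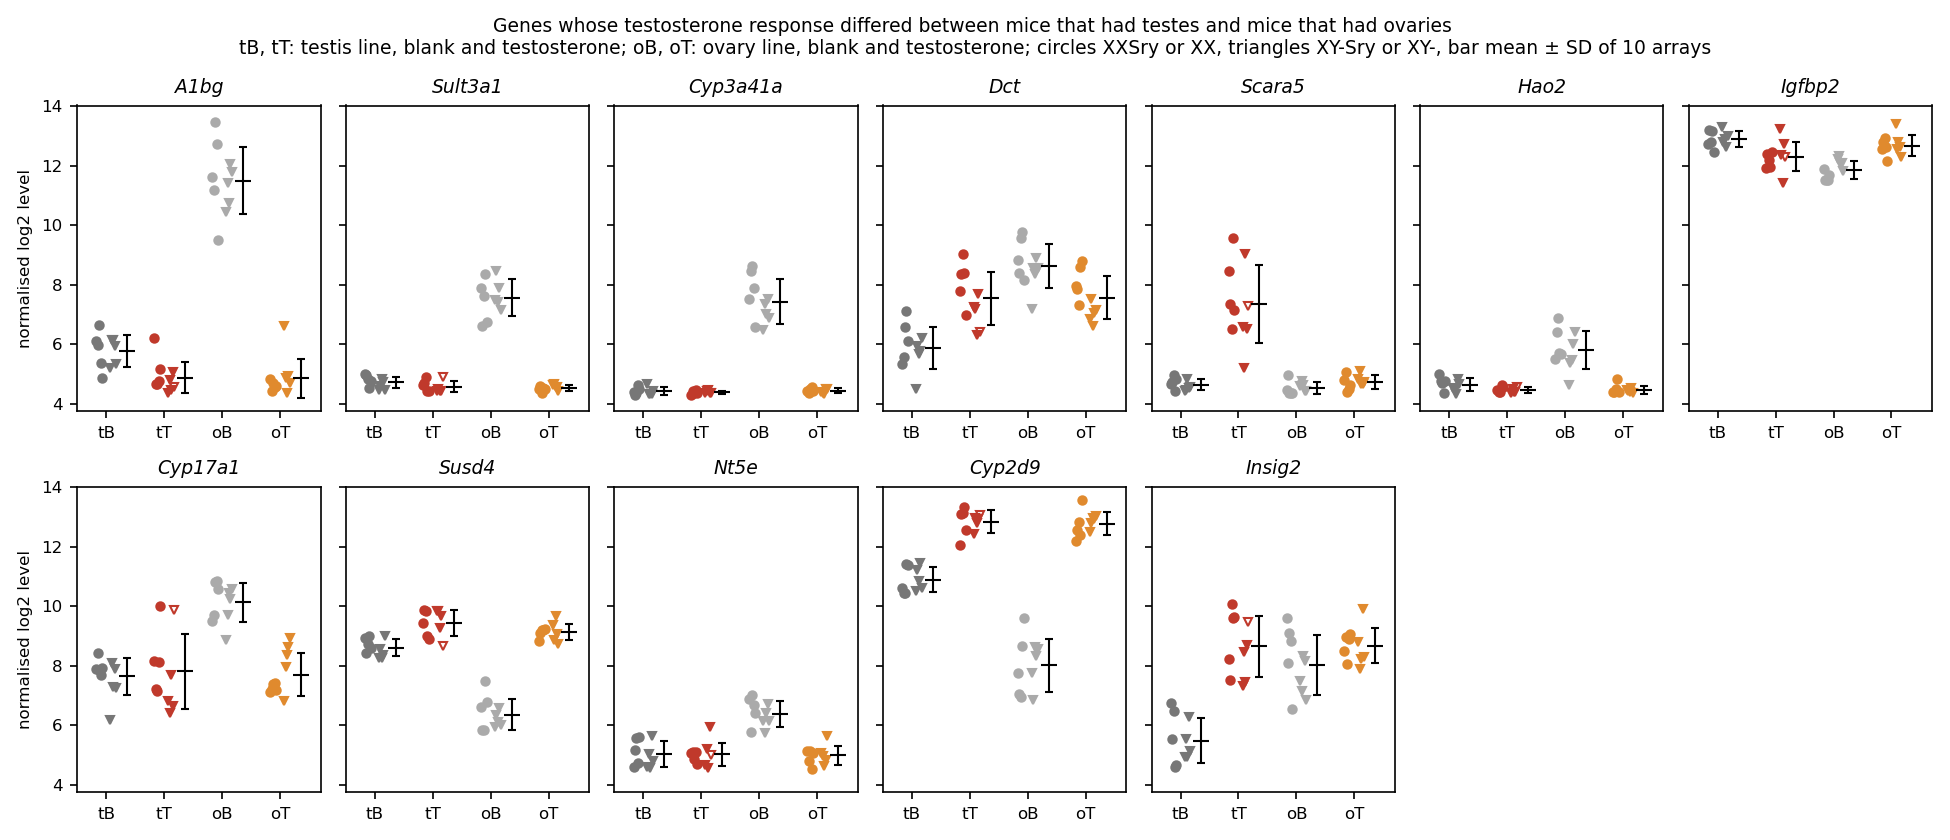
Normalised log2 level of 12 genes whose testosterone response differed between the lines, in the blank (tB) and testosterone (tT) arms of testis-line livers and the blank (oB) and testosterone (oT) arms of ovary-line livers. Circles are XXSry or XX and triangles XY-Sry or XY- arrays, the open triangle is the array with the doubtful label, and bars are mean ± SD of 10 arrays; in every panel but Scara5 the blank arms differ and the testosterone arms lie close together.

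Most of the leading genes did not pass the test for a response to estradiol in the same kind of mice. The estradiol response uses the same 10 blank arrays, so its values are set beside those of testosterone and the arms were tested against each other directly. That test called 698 probes (6.17%), 238 with higher and 460 with lower levels under testosterone, so that 34.1% of them were higher. Under median centring, which shifted the median of all probes by 0.11 in this contrast, 265 were called and 46.0% were higher. Of the 24 leading genes 23 differed between the hormones. They were chosen for large differences on the same 10 testosterone arrays, which favours such a call, so this count is a description. Cyp2b9 was at -6.55 with testosterone and -0.15 with estradiol, and Cyp4a12 at 5.78 and -0.49. Elovl3 was not well above background on any estradiol array and was at least 3.58-fold higher under testosterone (means 7.43 against 4.64, adjusted p = 2.57e-12).

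Insig2 was the leading gene for which no difference between the hormones was called, with 3.16 under testosterone and 2.79 under estradiol (difference 0.37 ± 0.39, adjusted p = 0.69). Hsd3b5 rose with both, by 5.90 and 2.19, and Serpina3k by 3.03 and 1.97. Vldlr fell with both, by 2.79 and 1.12. MGC25972 moved in opposite directions, rising by 4.81 with testosterone and falling by 2.07 with estradiol. Only 6 of the 24 were called for estradiol, against 201 of all probes (1.78%). Cux2 was detected on all 10 estradiol arrays and was at least 7.97-fold lower under testosterone (means 4.66 against 8.57). Bcl6 was at 1.74 and -0.39, Prlr at -2.32 and 0.11 and Esr1 at -1.12 and 0.39, and each of these 3 differed between the hormones (adjusted p from 1.38e-15 to 0.000292).

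**Figure D5:**
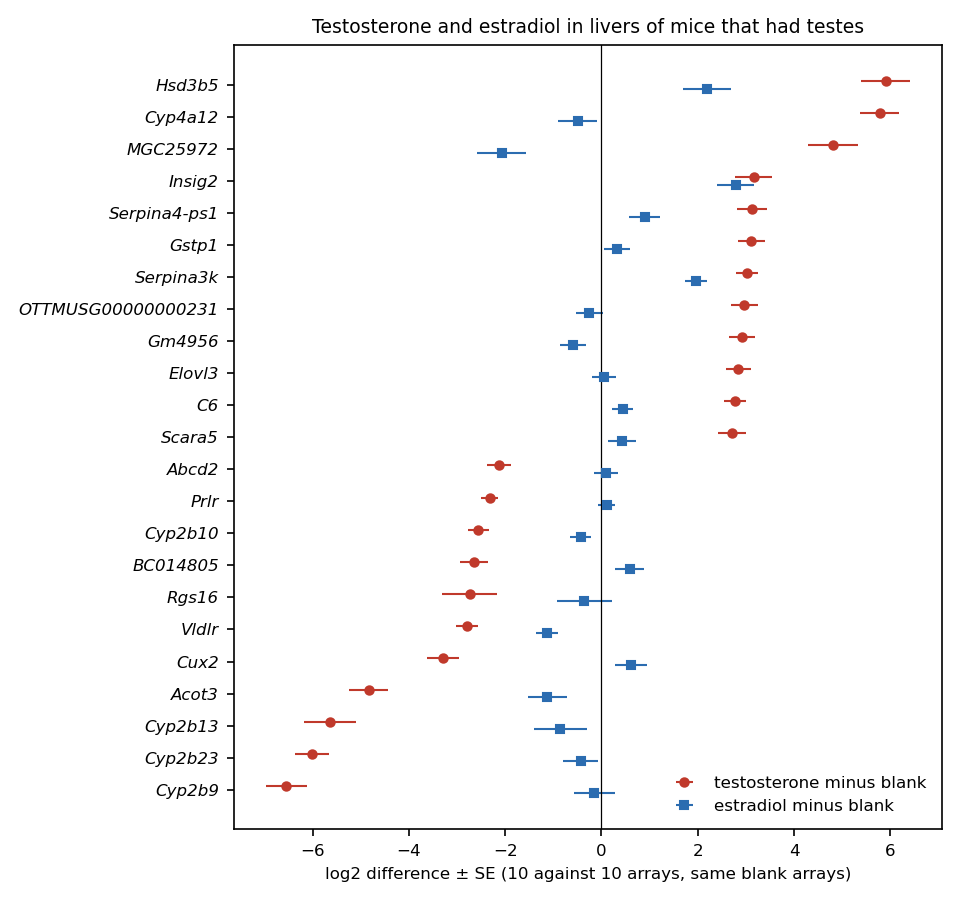
Log2 difference from blank, with its SE, of 23 leading genes under testosterone (red circles) and under estradiol (blue squares) in livers of mice that had testes, 10 arrays an arm. Both sets use the same blank arrays; Insig2 is the gene at which the symbols lie closest, and MGC25972 has a called estradiol value on the other side of 0. Elovl3, Scara5, Serpina4-ps1, Cux2 and BC014805 were not well above background in a whole arm, so the sizes plotted for them are set by that background.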

How the data were processed

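Liver RNA of 60 gonadectomised mice in 12 groups of 5 was measured on Illumina BeadChips, of which 20 arrays give the response described. The deposited values are mean bead intensity per probe on a linear scale with a detection p-value, per the file headers. The submitters' processing notes name lumi with no role, and the array version and genome build are not given in the sources used here. The intensities were background corrected by normexp with an offset of 16, quantile normalised over the 60 arrays and put on the log2 scale, and 11317 of 25697 probes with a detection p-value under 0.01 in at least 5 arrays were kept. A group-means model was fitted with limma 3.58.1 in R 4.3.3, and p-values were adjusted by Benjamini-Hochberg over all tested probes per comparison, with calls under 0.05. The script was tested on simulated data. The 60 columns of bead standard errors were not used.

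Symbols came from the RefSeq table of GRCm38.p6, which matched 10964 tested probes (96.9%). The number of arrays limits the precision. The genes named are the 12 largest called rises and 12 largest called falls with the same sign in both genotypes, up to 8 called differences between lines, up to 4 called members of each list with its pathway-defining members, and a fixed set of receptors and regulators. Line differences beyond those 8, families and some further list members were chosen after their values were seen. The members and lists were chosen with earlier results of these data known. Alternatives changed the normalisation, background correction, filter, arrays fitted, slide block, array weights and the doubtful label, or left out each array in turn. Leaving out both arrays with high acute-phase transcripts was chosen after seeing the data. Some results are not reported here.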

Additional observations from a re-analysis of the deposited data

Results flagged for a closer look

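Of 74 arms of 10 arrays examined, 7 held an array that lay far from the others by Dixon's ratio, and chance alone marks about 1 in 20 such arms. In 3 of the 7 arms that array was XXSry T replicate 1. Its levels were 8.82 for Cyp2b13 (next array 6.45), 6.2 for A1bg (next 5.17) and, as the lowest testosterone array, 6.97 for Cyp2b10 (next 8.12). Among blank arrays, XY-Sry B replicate 4 was highest for Gm4956 at 7.31 (next 6.24). XXSry B replicate 4 was lowest for BC014805 at 5.31 (next 6.83), and XY-Sry B replicate 1 was lowest for Cyp17a1 at 6.16 (next 7.25). XY-Sry T replicate 4 was highest for Nt5e at 5.92 (next 5.18).

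The testosterone response differed between the testis line and the ovary line, by the limma test of that difference, for 14 probes. For 12 of them, testis minus ovary, the differences were 5.74 ± 0.68 for A1bg, 2.96 ± 0.38 for Cyp3a41a, 2.89 ± 0.35 for Sult3a1 and 2.72 ± 0.42 for Dct. They were 2.60 ± 0.51 for Cyp17a1, 2.52 ± 0.41 for Scara5, 2.51 ± 0.55 for Insig2, 1.39 ± 0.29 for Nt5e and 1.16 ± 0.20 for Hao2. Those of Cyp3a41a, Sult3a1, Scara5 and Hao2 were measured against arms not well above background, so they are no sizes of a change. The 3 negative differences were -2.82 ± 0.60 for Cyp2d9, -1.95 ± 0.39 for Susd4 and -1.41 ± 0.26 for Igfbp2.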

How the results depend on the processing

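The count of 1034 probes was 410 under median centring, 370 on the 12 arrays of the shared slides and 634 without both arrays high in acute-phase transcripts, and under the other settings it stayed within 1.5 times. Leaving out 1 array at a time gave 756 (without XXSry T replicate 4) to 1273 (without XY-Sry T replicate 1). No probe was called for the sex chromosome difference under any alternative run. The 14 line differences became 24 and 25 with slide as a fixed or random block and 26 with array weights, and 13 to 18 with 1 array left out. The 698 differences between the hormones became 265 under median centring and 580 to 769 with 1 array left out. Of 117 called gene values followed, 73 kept their call under every alternative and 44 lost it at least once. Among those Gbp2b lost it under 21, Nr1h4 under 20, Cish under 17, Igfals under 15, Hsd17b4 and the Insig2 line difference under 14, Mup2 under 13 and Igfbp2 under 11. Only uncalled values changed sign, and the cause was not tested. Cyp3a41a became 0.16, 0.0857 and 0.034 with a fixed slide block, a random one and the shared slides, and Ghr -0.10, -0.0328 and -0.12. Cyp17a1 became -0.12 with array weights and -0.13 to 0.2997 with 1 array left out, below 0 without replicate 5 of XY-Sry T or of XXSry T. Nt5e became 0.0029 without background correction, 0.0016 with XY-Sry T replicate 5 taken as XXSry and 0.0354 without both acute-phase arrays, and reached 0.0782 with 1 array left out (-0.1175 at the lowest). With that replicate relabelled or left out, Xist became -0.12 and -0.10 and Eif2s3y 0.0274 and 0.0293, while leaving out other arrays gave up to 0.1759 for Xist and down to -0.4221 for Eif2s3y. Dim probes near background limit the size of their differences. No paired analysis was possible because replicate numbers were given in accession order and pair no arrays.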
